A study of Rattus norvegicus with 17 samples.

Results

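Acetylation of histone H3 at lysine 27 (H3K27Ac) was compared between oligodendrocyte precursor cells (OPC) and immature oligodendrocytes (iOL) of the rat, as mapped by chromatin immunoprecipitation with sequencing (ChIP-seq). The members were all peaks of the OPC list and of the iOL list, 19130 and 21589, together 40719 of the 189320 peaks in the 17 lists of the study. An OPC peak was called kept when it shared at least 1 bp with an iOL peak and lost when it did not, and an iOL peak was called kept or gained by the same rule. Each group was then divided by whether the peak met a trimethylated H3 lysine 4 (H3K4me3) peak of either stage.

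The cells were primary cultures from the cortices of wild-type Sprague-Dawley pups at postnatal day 2, grown with PDGF-AA at 10 ng/ml and bFGF at 20 ng/ml. OPC carried the label of mitogen treatment. The iOL samples, and those of the later mature stage (mOL), were labelled as treated with the thyroid hormone T3, used at 15 nM with CNTF at 10 ng/ml. How long each stage was cultured is not stated in the sources used here. The protocol gives the freshly isolated cells the immature stage's name, so the stages follow the sample titles. Stage identity was not checked against marker genes, because no gene annotation of the files' build, rn4, was at hand, and regions are therefore named by position only.

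H3K27Ac is laid down by the acetyltransferases p300 and CBP at active promoters and enhancers, and an enhancer usually carries it without H3K4me3, the mark of promoters. As precursors leave the cell cycle and begin to make myelin, enhancers are switched off and on while most promoters stay in use. Olig2, a basic helix-loop-helix factor that specifies the lineage, binds many of these enhancers, and Brg1, the motor subunit of BAF complexes that remodel nucleosomes, is needed for differentiation. Peaks that met H3K4me3 are called H3K4me3-marked below, and the others, which are where enhancers would be sought, H3K4me3-free. These names refer to H3K4me3 of OPC and iOL only. H3K4me3 of the mature stage was called at 19.5% of the H3K4me3-free OPC peaks and 15.7% of the H3K4me3-free iOL peaks.

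There was 1 library for each target and stage, so replicate error is unknown for every difference between stages and no test was run. The files hold positions only, the depth of each library is unknown, and a peak absent from a list may lie under its calling threshold. Fewer cells carrying the mark and less of the mark per cell cannot be told apart in such bulk samples. Shares are given with exact Clopper-Pearson 95% intervals in brackets, which cover counting error over peaks only; neighbouring peaks share their source and are not replicates. The lists differed in length, covering 17.9 Mb in OPC and 21.7 Mb in iOL, and the mOL list was longer still, with 35268 peaks.

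Most of the OPC landscape was called again in iOL, and the turnover lay mainly outside H3K4me3. Of the OPC peaks, 14603 were kept and 4527 were lost, which was 23.7% of the list. Of the iOL peaks, 14254 were kept and 7335 were gained, which was 34.0% of that list. These totals are what the overlap rule itself gives. Among H3K4me3-free peaks, 3255 of 9617 OPC peaks were lost, 33.8% (32.9 to 34.8), and 6064 of 12227 iOL peaks were gained, 49.6% (48.7 to 50.5). Among H3K4me3-marked peaks, 1272 of 9513 were lost, 13.4% (12.7 to 14.1), and 1271 of 9362 were gained, 13.6% (12.9 to 14.3).

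Gains outnumbered losses away from H3K4me3: 1.86 peaks were gained for each one lost among H3K4me3-free peaks and 0.999 among H3K4me3-marked peaks. When only the widest iOL peaks were used, as many as there are in OPC, these ratios became 1.39 and 0.528. The excess of H3K4me3-free gains thus remained under this cut. The cut left the OPC list whole, so it removed gains and also iOL partners of OPC peaks. The share lost at H3K4me3 rose from 13.4 to 19.0%, and the cut cannot decide whether the balance there was even. When both lists were cut, to the 9565 widest OPC and 10794 widest iOL peaks, the H3K4me3-marked shares were 25.3% lost and 25.2% gained. The H3K4me3-free shares were then 35.7% lost and 50.1% gained.

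Measured in sequence rather than in peaks, 12.9 Mb was called at both stages. This was 72.2% of the OPC bases, 59.5% of the iOL bases and 48.4% of the bases called at either stage. Lost peaks held 17.4% of the OPC bases, and a further 10.4% lay in kept peaks but beyond the edges of the iOL peaks. Gained peaks held 25.5% of the iOL bases, and 15.0% lay in kept peaks outside the OPC peaks. The H3K4me3-free gained peaks covered 4.72 Mb and the H3K4me3-free lost peaks 2.27 Mb, whereas gained and lost peaks at H3K4me3 covered 0.814 and 0.843 Mb.

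Lost and gained peaks were narrow. In the H3K4me3-free class the median width was 597 bp for lost and 841 bp for kept OPC peaks, and 645 bp for gained and 1002 bp for kept iOL peaks. The same order held at H3K4me3, with 582 bp for lost, 800 bp for kept OPC, 583 bp for gained and 866 bp for kept iOL peaks. Peaks of 2 kb or more made up 0.729% of lost peaks (33 peaks) and 7.22% of kept OPC peaks. They made up 1.43% of gained peaks (105 peaks) and 10.1% of kept iOL peaks.

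The share of peaks with no partner at the other stage was lower the wider the peaks, in both lists. Among H3K4me3-free OPC peaks, 52.5% (49.4 to 55.5) of those in the narrowest decile of the OPC list were lost and 6.17% (4.80 to 7.78) of those in the widest decile. Among H3K4me3-free iOL peaks, 71.1% (68.6 to 73.5) were gained in the narrowest decile and 12.6% (10.9 to 14.5) in the widest decile. H3K4me3-marked peaks ran from 28.4 to 3.80% lost and from 33.6 to 0.900% gained over the same deciles. The widest decile of the iOL list held 174 H3K4me3-free gained peaks and 7 H3K4me3-marked gained peaks, so the wide gains were almost all H3K4me3-free. A wider peak also has more bases with which to meet another; the part of width itself in these shares was not tested.

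**Figure D1:**
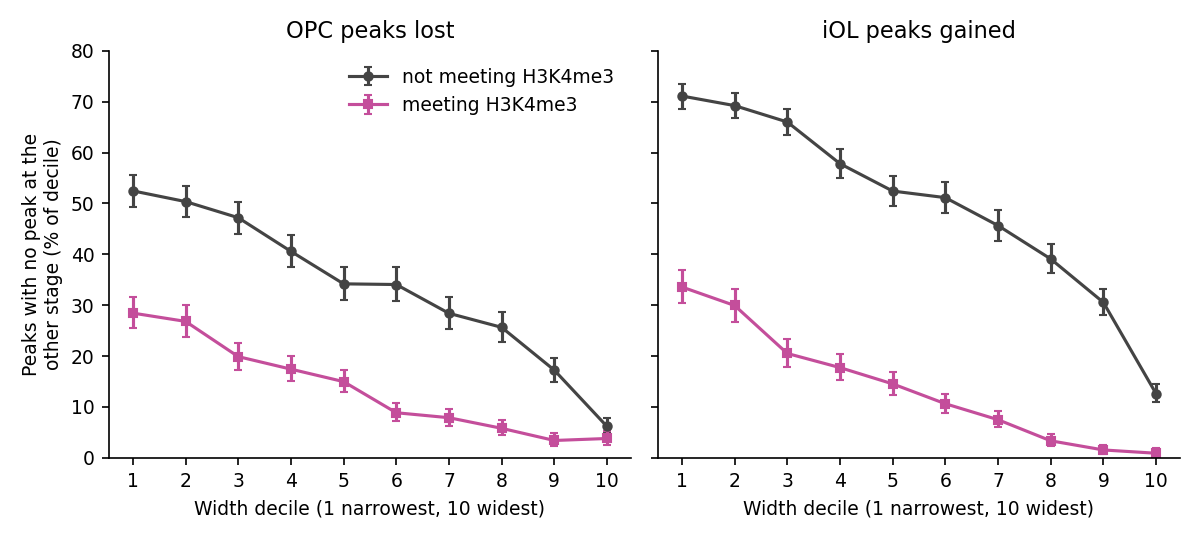
Share of OPC H3K27Ac peaks lost (left) and of iOL peaks gained (right), in percent on the y axis, against the decile of each list by peak width on the x axis; dark circles are H3K4me3-free peaks, pink squares are H3K4me3-marked peaks, and bars are exact 95% intervals. Both shares were lower in the widest decile than in the narrowest, from 52.5 to 6.17% lost and from 71.1 to 12.6% gained among H3K4me3-free peaks.

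Kept peaks differed in called extent between the OPC and iOL lists. In 11289 cases 1 OPC peak met 1 iOL peak, and 4639 of these pairs were H3K4me3-free. Their median width was 849 bp in OPC and 992 bp in iOL, the iOL peak was the wider one in 61.0% of pairs, and the median ratio of iOL to OPC width was 1.10. At least a doubling of width was seen in 544 H3K4me3-free pairs and at least a halving in 202. H3K4me3-marked pairs differed less, with medians of 787 and 841 bp, 232 pairs at least doubled and 147 at least halved. The bases shared by a pair made up a median of 71.5% of its combined extent without H3K4me3 and 78.9% with it. Some kept peaks met more than 1 peak of the other stage: 958 OPC peaks met 2 or more iOL peaks, up to 6. Likewise, 1261 iOL peaks met 2 or more OPC peaks, up to 5. With positions only, divided acetylation and a break in the calls cannot be told apart.

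The largest gains of width among H3K4me3-free pairs were at chr3:149473711-149480493, where the peak went from 2222 bp in OPC to 6783 bp in iOL, at chr1:30069418-30073966, from 526 to 4549 bp, and at chr18:77536027-77540900, from 880 to 4874 bp. All 3 met Olig2 in iOL, with 1, 2 and 2 peaks, and the region on chromosome 1 met none of OPC. The largest losses were at chr3:170944292-170948047, from 3756 to 922 bp, at chr10:74173741-74176641, from 2901 to 527 bp, and at chr2:13635780-13638647, from 2868 to 573 bp. The first of these met 1 Brg1 peak at each of the 3 stages and 1 Olig2 peak in OPC and in iOL. The third met Olig2 in OPC only.

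Turnover differed between peaks that met H3K4me3 and those that did not, and among the latter it varied little over most distances. Loss was higher only beyond 100 kb, and gain was lower only within 1 kb. The median distance to the nearest H3K4me3 peak of OPC or iOL was 46.7 kb for H3K4me3-free lost peaks and 34.6 kb for kept OPC peaks, and 44.5 kb for gained and 35.7 kb for kept iOL peaks. The share lost was 30.4% (27.9 to 33.1) of peaks that lay within 1 kb of H3K4me3 without meeting it, stayed between 31.0 and 33.8% from there out to 100 kb, and was 39.2% (37.4 to 41.1) farther out. The share gained was 35.4% within 1 kb, between 48.5 and 51.1% out to 100 kb and 53.4% beyond. The peaks just beside H3K4me3 were narrow, with a median of 556 bp in OPC and 593 bp in iOL, and yet were less often gained than the wider peaks farther out.

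**Figure D2:**
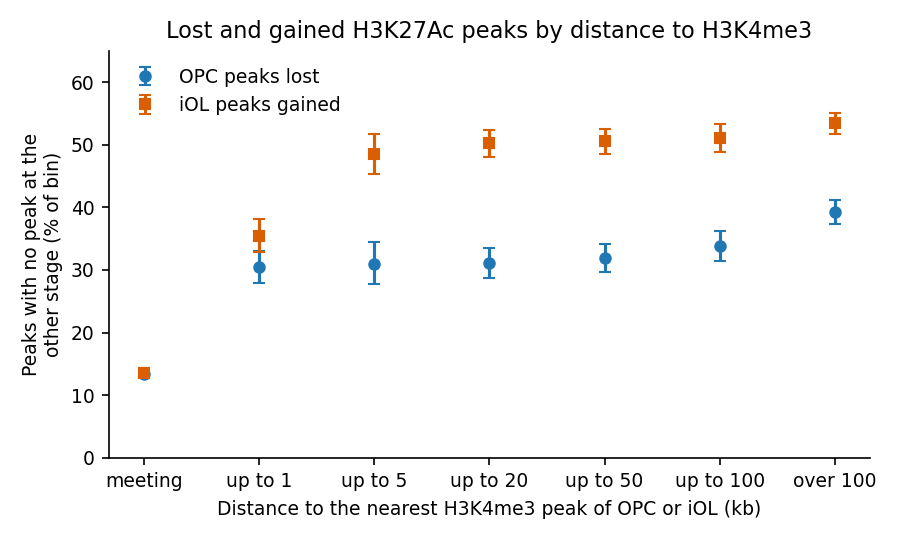
Share of OPC H3K27Ac peaks lost (blue circles) and of iOL peaks gained (orange squares), in percent, by distance in kb to the nearest H3K4me3 peak of OPC or iOL, with exact 95% intervals. The first bin holds peaks that meet H3K4me3, where the shares were 13.4 and 13.6%; in every bin from 1 kb outward the gained share stood above the lost share.

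The H3K4me3-marked peaks that turned over more often sat at H3K4me3 called at a single stage. Of the lost ones, 24.0% (21.7 to 26.4) met H3K4me3 of OPC and not of iOL, against 7.18% (6.64 to 7.76) of the kept OPC peaks. A further 10.4% met H3K4me3 of iOL and not of OPC, against 4.25% of the kept ones, so the excess was in both directions and larger toward OPC. Of the gained ones, 16.7% met H3K4me3 of OPC only and 13.0% of iOL only, against 7.25 and 4.17% of the kept iOL peaks. The excess of gained over kept peaks was thus also in both directions. It was of similar size in percentage points, and as a ratio it was larger toward iOL. Most gained peaks, 70.3%, met H3K4me3 of both stages. The OPC H3K4me3 list is the longer, with 11758 against 10467 peaks, which by itself raises the shares that met H3K4me3 of OPC only. RNA polymerase II of iOL was called at 3.85% of lost and 15.3% of kept OPC peaks with H3K4me3, and at 5.27% of gained and 15.1% of kept iOL peaks with it. Its share was 13.8% over all OPC peaks with H3K4me3. RNA polymerase II of OPC, with 332 peaks in its list, showed the same order. It was called at 0.393% of lost and 3.75% of kept OPC peaks, and at 1.02% of gained and 3.71% of kept iOL peaks. Kept peaks are also wider, and the part of width was not tested here.

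Fewer lost than gained peaks had another peak of their own group nearby, and kept peaks had one most often. Within 12500 bp of another H3K4me3-free peak of the same group lay 42.0% of the H3K4me3-free gained peaks and 25.3% of the lost ones; the gained group is also the larger, which by itself brings its peaks closer. Among kept peaks the share was 44.7% in iOL, a group of nearly the size of the gained one, and 47.5% in OPC. Joining peaks of the same group across gaps of up to 12500 bp gave 1079 stretches of 2 or more gained peaks and 370 of lost peaks. Stretches of 4 or more numbered 83 and 15, and the fullest held 12 gained and 6 lost peaks. The counts moved with the gap, to 31 and 4 stretches of 4 or more at 5 kb, with at most 6 and 5 peaks, and to 163 and 27 at 25 kb, with at most 23 and 6. Peaks parted by a short break in the calls count separately here, which raises the number of peaks in a stretch.

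Most lost and most gained peaks lay in stretches without a peak of the other group. When all OPC and iOL peaks were joined across the same gap into 14032 stretches, 52.1% of gained peaks fell in 3008 stretches with gained peaks only, and 53.5% of lost peaks in 2083 stretches with lost peaks only. Another 1845 stretches held kept and gained peaks and 1108 held kept and lost peaks. Lost and gained peaks occurred together in 247 stretches without a kept peak and in 339 with one, which held 16.0% of lost and 11.0% of gained peaks. With gaps of up to 5 kb these shares were 9.30 and 6.04%, and with 25 kb 26.3 and 20.8%. A stretch without a kept peak holds lost or gained peaks by definition. Stretches with gained peaks only and with lost peaks only were short, with median lengths of 0.755 and 0.665 kb. These shares therefore do not show that losses and gains avoid each other. How often they would share a stretch by their numbers alone was not tested. The nearest OPC peak to an H3K4me3-free gained peak was a median of 17.9 kb away and within 1 kb for 14.7% of them. For H3K4me3-marked gained peaks the median was 1.44 kb, and 46.7% had an OPC peak within 1 kb. From a H3K4me3-free lost peak the nearest iOL peak was a median of 18.6 kb away and the nearest gained peak 102 kb.

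The stretches with the most gained peaks were at chr20:43571181-43612317 and chr17:36908738-36960652, with 12 each over 41.1 and 51.9 kb, and chr4:162276901-162309857, with 8 gained and 3 kept peaks. The stretch on chromosome 20 had 2 OPC peaks and 14 iOL peaks, met 2 Olig2 peaks of iOL and none of OPC, and met 16 H3K27Ac peaks of mOL. It lay next to the widest H3K4me3-free kept OPC peak outside unplaced sequence, chr20:43560164-43568328, which was 8165 bp wide and met 3 Olig2 peaks of OPC, 3 of iOL and 2 Brg1 peaks of iOL. In the stretch on chromosome 17, 1 OPC peak stood against 13 iOL peaks, with 2 Olig2 peaks of OPC and 5 of iOL and 1 Brg1 peak of iOL. In all 3 stretches more Olig2 peaks were called in iOL than in OPC; the iOL Olig2 list is also the longer, with 25787 against 21901 peaks.

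The widest gained peaks without H3K4me3 were chr15:40019266-40028591, 9326 bp, and chr15:40044782-40050288, 5507 bp. Each met 1 Olig2 peak of iOL, none of OPC and 1 H3K27Ac peak of mOL. Each also met 2 peaks in mOL of H3K9me3, a mark of silenced chromatin, which were 3666 and 6318 bp wide at the first and 9318 and 3031 bp at the second; no H3K9me3 peak of OPC or iOL was called there. Such overlap was rare, at 33 of the 6064 H3K4me3-free gained peaks, 0.544% (0.375 to 0.763), and 35 of the 6163 kept iOL peaks, 0.568% (0.396 to 0.789).

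**Figure D3:**
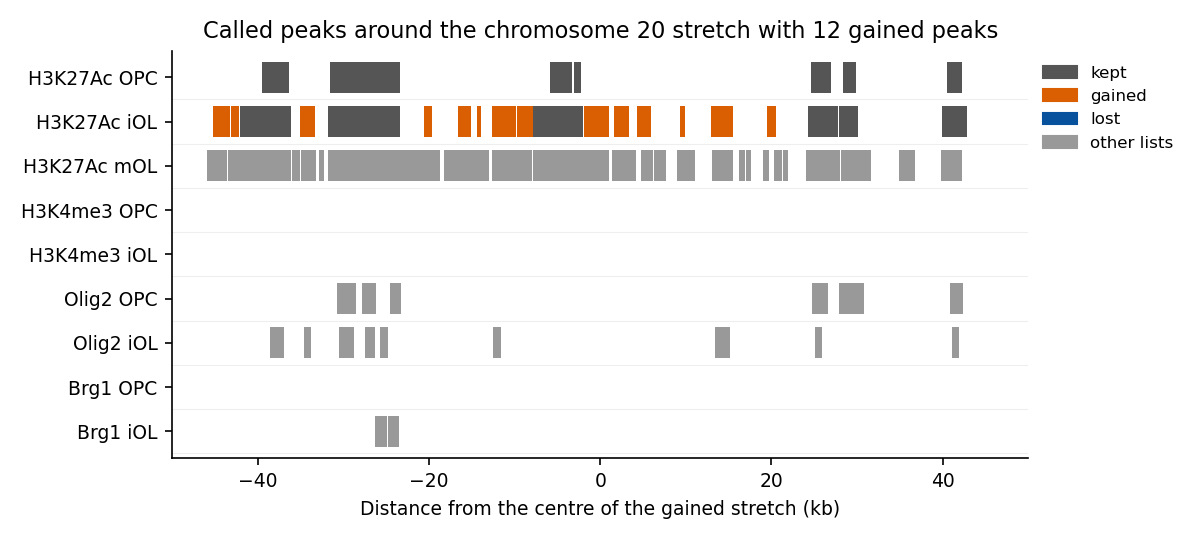
Peaks called around the chromosome 20 stretch, drawn to scale as distance in kb from its centre, with 1 row for each list; in the OPC and iOL H3K27Ac rows dark bars are kept, orange bars gained and blue bars lost peaks (none lie here), and pale grey bars are peaks of the other lists. The 12 gained peaks, with 2 kept iOL peaks among them, lie between a wide kept region on the left and further kept peaks on the right. Olig2 of both stages and Brg1 of iOL were called in that wide region on the left. More gained peaks lie at the far left.

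The stretches with the most H3K4me3-free lost peaks were chr19:25023916-25053149, with 6 over 29.2 kb, chr10:40422318-40439169, with 6 over 16.9 kb, and chr18:28463460-28478404, with 5 over 14.9 kb. This ranking counts peaks parted by short breaks as separate. On chromosome 10 the lost peaks lay in close pairs, as where a peak ended at 40438675 and the next began at 40438682. The chromosome 10 stretch had no iOL peak at all and met 1 Olig2 peak of OPC, 1 of iOL and 1 H3K4me3 peak of mOL. H3K27Ac of mOL was called in all 3 stretches, with 9, 4 and 5 peaks in the order given. The stretch on chromosome 19 also held H3K4me3, with 2 peaks at each stage. None of the 3 met Brg1 of any stage. The widest single losses without H3K4me3 were chr8:114666579-114669266, 2688 bp, and chr1:83380786-83383440, 2655 bp. Each met 2 H3K27Ac peaks of mOL, and the first met 1 Olig2 peak of OPC and 1 of iOL. At H3K4me3 the widest losses were chr11:20423243-20426363, 3121 bp, and chr5:101446022-101448822, 2801 bp. Each met 1 H3K27Ac peak of mOL, and the second met H3K4me3 of OPC and not of iOL.

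Olig2 was common at H3K4me3-free acetylation, and a larger share of kept than of lost or gained peaks met it. Over the whole OPC list 30.1% of peaks met Olig2 of OPC and 33.4% met Olig2 of iOL; over the iOL list the shares were 27.1 and 35.8%. Among H3K4me3-free peaks, Olig2 of iOL was called at 65.9% (64.7 to 67.0) of kept OPC peaks and 42.6% (40.9 to 44.3) of lost peaks. It was called at 66.0% (64.8 to 67.2) of kept iOL peaks and 47.1% (45.9 to 48.4) of gained peaks. Olig2 of OPC was called at 29.8% (28.6 to 31.0) of gained peaks and 57.3% (56.0 to 58.5) of kept iOL peaks. Kept peaks are wider, and per Mb of H3K27Ac the order differed in part. Olig2 peaks of OPC numbered 640 per Mb of lost and 476 per Mb of kept OPC peaks, and Olig2 peaks of iOL 566 and 560. Olig2 peaks of iOL numbered 547 per Mb of gained and 495 per Mb of kept iOL peaks. For Olig2 peaks of OPC the order held, with 346 per Mb of gained and 417 per Mb of kept iOL peaks. A factor peak counted whole when it shared at least 1 bp with the group, which raises the count per Mb of narrow peaks. At H3K4me3-marked peaks Olig2 was rare, between 3.07 and 9.27% in every group.

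The difference for Olig2 of OPC between lost peaks, 48.0% (46.2 to 49.7), and kept OPC peaks, 57.3% (56.1 to 58.5), went with their widths. Within quartiles of the H3K4me3-free OPC peaks by width, from narrow to wide, the shares were 37.2, 47.1, 57.5 and 70.8% at lost peaks and 39.0, 45.5, 57.9 and 75.0% at kept peaks. In the second quartile lost peaks were 1.67 percentage points higher. When only the middle 200 bp of each of the same peaks was set against Olig2 of OPC, the shares were 46.4 and 55.8%, so the difference was also there at a fixed window. When kept and lost were called anew on the middle 200 bp, which makes 60.7% of these peaks lost, the lost group was 1.60 points higher. Lost and kept peaks of like width were thus about equally often called for Olig2 of OPC. For Olig2 of iOL the gap stayed in every quartile, with 32.8, 44.2, 49.0 and 60.7% at lost peaks and 45.5, 56.9, 66.4 and 83.0% at kept peaks. Gained and kept iOL peaks were set side by side in quartiles of the H3K4me3-free iOL peaks. Olig2 of iOL was called there at 35.9, 48.1, 52.1 and 68.5% of gained peaks and 40.1, 51.1, 66.4 and 84.2% of kept iOL peaks. That gap was small in quartiles 1 and 2, where the intervals overlapped, and larger in quartiles 3 and 4.

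Brg1 in OPC was called at few peaks, 1.93% of the OPC list and 1.48% of the iOL list, and its list held 452 peaks. Brg1 of iOL was called at 14.8% of the OPC list and 14.1% of the iOL list. In the H3K4me3-free class it was called at 31.7% (30.6 to 32.9) of kept OPC peaks and 16.4% (15.1 to 17.7) of lost peaks, and at 31.9% (30.8 to 33.1) of kept iOL peaks and 13.4% (12.6 to 14.3) of gained peaks. Newly called acetylation in iOL was therefore less often called for Brg1 of the same stage than kept acetylation. Of the 533 H3K4me3-free lost peaks with Brg1 of iOL, 410 also met Olig2 of iOL, 76.9% (73.1 to 80.4), against 91.5% (90.2 to 92.7) of the 2019 kept OPC peaks with Brg1 of iOL. Brg1 of OPC was called at 2.49% of lost, 4.37% of kept OPC, 4.38% of kept iOL and 0.660% of gained peaks. At H3K4me3 no lost or gained peak met Brg1 of OPC; 0 of 1272 lost peaks allows a share of up to 0.236% at 3 counts, and the share of all H3K4me3-marked OPC peaks was 0.116%, so no difference was detectable.

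**Figure D4:**
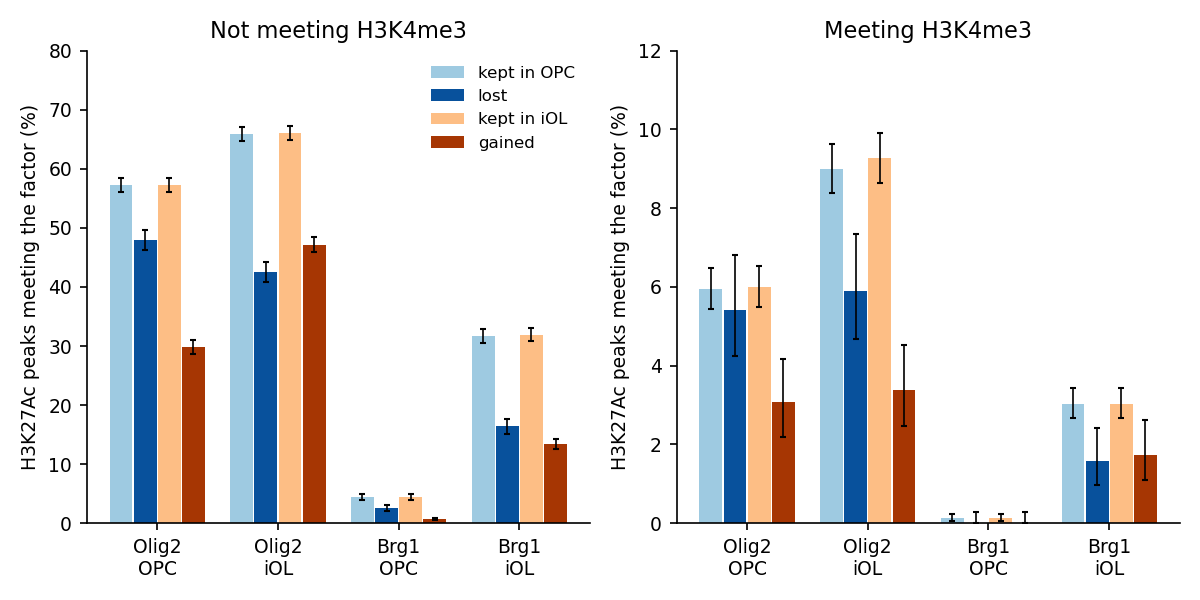
Share of H3K27Ac peaks, in percent, that meet an Olig2 or Brg1 peak of OPC or iOL, for kept OPC (pale blue), lost (dark blue), kept iOL (pale orange) and gained (dark orange) peaks, with exact 95% intervals; H3K4me3-free peaks are on the left and H3K4me3-marked peaks on the right, on different y scales. Without H3K4me3 each factor was less often called at lost or gained than at kept peaks, but for Olig2 of OPC at lost peaks this turned round in the second width quartile and when kept and lost were called anew on the middle 200 bp of each H3K27Ac peak.

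The stage at which Olig2 was called went with the stage at which acetylation was called. Of the H3K4me3-free OPC peaks that met Olig2 in OPC and not in iOL, 402 of 696 were lost, 57.8% (54.0 to 61.5). This compares with 25.7% (1159) of the 4509 that met Olig2 at both stages, 21.3% (18.9 to 23.9) of the 1067 that met it in iOL alone and 43.9% (42.2 to 45.6) of the 3345 that met none. Of the H3K4me3-free iOL peaks that met Olig2 in iOL alone, 1264 of 2078 were gained, 60.8% (58.7 to 62.9). The share was 32.9% (31.5 to 34.2) with Olig2 at both stages, 43.9% (39.4 to 48.4) with Olig2 in OPC alone and 62.2% (60.8 to 63.6) with none. Loss was thus more frequent where Olig2 was called in OPC alone than where none was called. Gain with Olig2 in iOL alone was no more frequent than with none when all widths were pooled, but the former peaks were wider, with a median of 853 bp, and within width quartiles the order changed.

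Peaks with Olig2 at both stages were wider, with medians of 902 bp in OPC and 999 bp in iOL, than peaks with none, at 598 and 640 bp. Within quartiles of width, from narrow to wide, the share lost with Olig2 in OPC alone was 67.2, 64.9, 58.2 and 33.8%, with Olig2 at both stages 44.5, 38.0, 26.1 and 10.3%, with Olig2 in iOL alone 36.8, 27.5, 16.9 and 5.51%, and with none 54.2, 44.7, 35.5 and 21.8%. Loss was thus highest with Olig2 in OPC alone and lowest with Olig2 in iOL alone in each of the 4 quartiles, with some neighbouring intervals overlapping in quartiles 1 and 4. The share gained with Olig2 in iOL alone was 79.9, 71.4, 61.0 and 39.6%, with Olig2 at both stages 61.1, 49.4, 31.4 and 13.5%, with Olig2 in OPC alone 60.8, 43.7, 39.4 and 19.7%, and with none 72.3, 61.5, 56.8 and 40.8%. Gain with Olig2 in iOL alone stood above gain with none in quartiles 1 and 2, where the intervals did not overlap (75.7 to 83.8 against 70.2 to 74.4%, and 67.3 to 75.2 against 58.9 to 64.0%), and the intervals overlapped in quartiles 3 and 4. OPC Olig2 peaks were themselves wider, with a median width of 1312 bp, than those of iOL, with 720 bp. When each factor peak was cut to its middle 200 bp the share lost with Olig2 in OPC alone was 46.9%, against 24.5% at both stages and 42.7% with none.

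**Figure D5:**
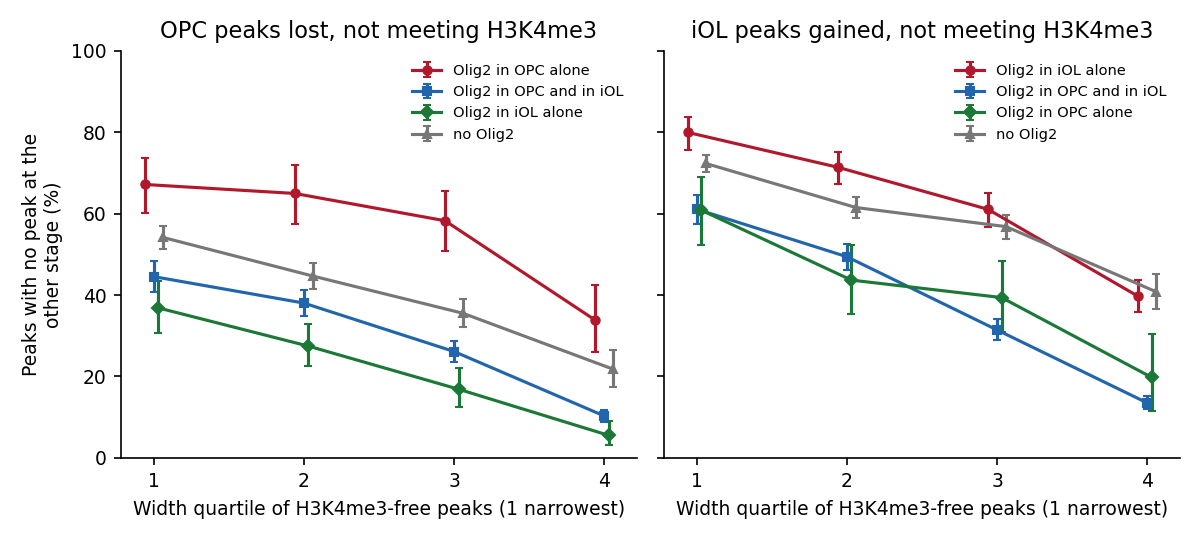
Share of H3K4me3-free OPC peaks lost (left) and iOL peaks gained (right), in percent, against the quartile of the H3K4me3-free peaks by width, for peaks that meet Olig2 at the peak's own stage alone (red circles), at both stages (blue squares), at the other stage alone (green diamonds) or at neither (grey triangles), with exact 95% intervals. In each quartile loss was highest with Olig2 in OPC alone, from 67.2 to 33.8%, and lowest with Olig2 in iOL alone, from 36.8 to 5.51%; gain was lower with Olig2 in OPC, alone or at both stages, than with Olig2 in iOL alone or with none.

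Where Olig2 was called at both stages, Brg1 of iOL divided the peaks further. The share lost was 18.8% (17.1 to 20.5) of the 2121 peaks with Brg1 of iOL and 31.9% (30.0 to 33.8) of the 2388 without it. The share gained was 24.7% (23.0 to 26.6) of 2251 and 39.9% (38.0 to 41.8) of 2598. In the widest quartile the difference was smaller, at 7.62 and 13.4% lost and 11.3 and 16.0% gained. Where Olig2 was called in iOL alone, 49.4% (42.8 to 55.9) of the 237 peaks with Brg1 of iOL were gained and 62.3% (60.0 to 64.5) of the 1841 without it.

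At the later mOL stage, kept acetylation was mostly called again and lost acetylation partly. In the H3K4me3-free class 91.4% (90.7 to 92.1) of kept OPC peaks met an H3K27Ac peak of mOL, as did 56.3% (54.6 to 58.1) of lost peaks and 69.3% (68.1 to 70.5) of gained peaks. With H3K4me3 the shares were 98.8% of kept OPC, 82.9% of lost and 89.5% of gained peaks. The mOL list is the longest of the 3. When only its widest peaks were used, as many as in OPC, 32.4% of the H3K4me3-free lost and 49.2% of the gained peaks met one.

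Brg1 of mOL separated lost from gained peaks more than Brg1 of iOL did. Without H3K4me3 it was called at 5.28% (4.54 to 6.11) of lost peaks and 17.1% (16.1 to 18.0) of gained peaks, and at 24.3 and 24.8% of kept OPC and kept iOL peaks. In the widest quartile of iOL peaks it was called at 35.2% (31.7 to 38.8) of the gained ones and 37.0% (35.0 to 38.9) of the kept ones, whose intervals overlap, whereas Brg1 of iOL was called at 22.1% (19.1 to 25.3) and 42.4% (40.4 to 44.5). In the widest quartile of OPC peaks Brg1 of mOL was called at 8.20% (5.37 to 11.9) of lost and 33.7% (31.6 to 35.7) of kept peaks. In quartiles 1 to 3 Brg1 of mOL was called at 10.4, 15.0 and 20.5% of gained and 8.93, 14.4 and 24.7% of kept iOL peaks, and Brg1 of iOL at 9.12, 13.0 and 16.2% against 15.9, 23.2 and 32.8%. Between gained and kept iOL peaks of like width, the shares with Brg1 of mOL were thus close, apart from the third quartile. Those with Brg1 of iOL were not. Lost and kept OPC peaks differed for Brg1 of mOL in the narrower quartiles too. There it was called at 3.69, 5.32 and 6.69% of lost and 14.0, 19.0 and 24.3% of kept peaks in quartiles 1 to 3.

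By chromosome, the share of H3K4me3-free peaks lost ran from 26.5% (21.4 to 32.2) on chromosome 12 to 39.8% (32.6 to 47.3) on X, and the share gained from 41.6% (34.4 to 49.1) on X to 55.6% (50.9 to 60.3) on chromosome 14. On the X chromosome 77 peaks were gained and 72 lost, a ratio of 1.07, the lowest of the placed chromosomes. The highest was 2.32, on chromosome 13.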

How the data were processed

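Each of the 17 ChIP-seq libraries had 1 deposited file with the chromosome, start and end of each of the authors' peaks and no score, so the values are positions and widths in bp. The submitters' processing notes name MACS 1.4.0 and build rn4; aligner, threshold, control, filters and pooling: not given in the sources used here. Depth is unknown. Starts were made 1-based. Overlap meant at least 1 bp, distances were edge to edge, and stretches joined peaks across gaps of up to 12500 bp. Widths were binned by deciles or quartiles of a list (quartiles over its H3K4me3-free peaks). The members, groups and alternatives were chosen with earlier results of these data known. Named regions were, outside unplaced sequence, the 2 widest peaks of each group, the 3 stretches of lost and of gained H3K4me3-free peaks with the most peaks, and the 3 H3K4me3-free 1-to-1 pairs with the largest gain and loss of width; the text gives a selection. No test was run, as each target and stage had 1 library. Overlaps and distances were tested on simulated lists and checked against bedtools 2.31.1 for 32 pairs of lists, of which 0 differed. Python 3.11.15, numpy 2.4.6, scipy 1.17.1 and matplotlib 3.10.9 were used. Alternatives were peaks within 1000 bp, 50% overlap of the shorter peak, no unplaced sequence, merged peaks, middle 200 bp, equal-length lists, wider 50%, other H3K4me3 classes and width quartiles, and gaps of 5 and 25 kb; the middle 200 bp of factor peaks, the middle 200 bp with groups as called, Olig2 classes by width quartile and an equal-length mOL list were added after seeing the data. No sequence is shown, since no rn4 genome was used here.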

Additional observations from a re-analysis of the deposited data

How the results depend on the processing

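All values are for H3K4me3-free peaks unless H3K4me3 is named. Of 216 recomputed signed differences, over 18 comparisons, 210 kept their direction; the 6 that did not were lost minus kept OPC peaks with Olig2 of OPC (1.60 points with kept and lost called on the middle 200 bp of each H3K27Ac peak, 1.67 in width quartile 2) and peaks gained with Olig2 in iOL alone minus with none (3.13 points with the middle 200 bp, and 7.62, 9.88 and 4.25 in width quartiles 1 to 3). The cause was not tested. Of 110 recomputed levels, 36 stayed inside the interval of the value reported.

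The share lost became 35.4% with overlap of 50% of the shorter peak, 29.9% within 1000 bp, 60.7% with the middle 200 bp, 37.4% with the widest iOL peaks, 35.7% in the wider 50% of each list and 35.0% with H3K4me3 of any stage. At H3K4me3 it became 8.74% within 1000 bp, 35.4% with the middle 200 bp, 19.0% with the widest iOL peaks, 25.3% in the wider 50%, 15.9% with H3K4me3 of any stage and 12.6% with that of the own stage. The share gained became 50.8% with 50% overlap, 46.2% within 1000 bp, 69.0% with the middle 200 bp and 46.5% with the widest iOL peaks. It became 53.0% with H3K4me3 of any stage and 48.2% with that of the own stage. At H3K4me3 the share gained became 7.61, 34.0, 11.3, 25.2, 16.6 and 12.4%, in the order of the shares lost at H3K4me3. The ratio of gained to lost at H3K4me3 became 0.528 with the widest iOL peaks, a cut that left the OPC list whole.

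With 50% overlap, within 1000 bp, in the wider 50% and with the middle 200 bp of factor peaks, lost peaks met Olig2 of OPC at 44.7, 56.8, 60.8 and 37.1% and Brg1 of iOL at 14.9, 19.8, 24.8 and 13.1%; gained peaks met Olig2 of iOL at 38.4, 54.9, 61.2 and 38.2% and Brg1 of iOL at 12.1, 15.5, 21.5 and 10.9%. With the middle 200 bp of H3K27Ac peaks the shares were 52.5% (lost, Olig2 of OPC), 23.3% (lost, Brg1) and 18.2% (gained, Brg1). With the middle 200 bp set against the factors and groups as called, gained peaks met Olig2 of iOL at 41.9% and Brg1 at 12.53%. With H3K4me3 of any stage the shares were 55.7, 19.2, 51.1 and 14.7%, and with the widest iOL peaks gained peaks met Olig2 of iOL at 50.2% and Brg1 at 14.7%. In width quartiles 1, 3 and 4 the 4 shares were 37.2, 57.5 and 70.8% (lost, Olig2 of OPC), 11.9, 19.5 and 27.9% (lost, Brg1), 35.9, 52.1 and 68.5% (gained, Olig2) and 9.12, 16.2 and 22.1% (gained, Brg1). Lost peaks met H3K27Ac of mOL at 70.8% (middle 200 bp), 58.9% (widest iOL peaks), 77.8% (wider 50%), 53.2% (H3K4me3 of any stage) and 32.4% (equal-length mOL list); gained peaks at 67.5% (50% overlap), 71.9% (within 1000 bp), 74.6, 72.0, 84.2 and 49.2% (the same without H3K4me3 of any stage). With gaps of 5 and 25 kb, 20.0 and 31.1% of lost and 33.3 and 50.9% of gained peaks lay in stretches of 2 or more, with 4 and 27 stretches of 4 or more lost and 31 and 163 of gained peaks. No paired analysis was possible because each target and stage has 1 library. Depth is unknown, so a longer list and a deeper library cannot be told apart.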
